A study of Mus musculus with 37 samples.

Results

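Wild-type muscle growth between 4 and 8 weeks of age was followed by bulk RNA sequencing of the gastrocnemius, the large fast muscle of the calf. The comparison used 11 of the 37 libraries of the series, chosen by their labels alone: 6 wild-type animals of 4 weeks (animals 1 to 6) and 5 of 8 weeks (animals 34 to 38). A pair of wild-type libraries of 6 weeks (animals 16 and 17) showed the path between, and the wild-type libraries of 2 weeks gave earlier levels. The study set these animals beside mice that lack Nampt, an enzyme of NAD synthesis, in skeletal muscle, and no knockout library enters here. The labels call the animals wild type and give no strain, and whether they carried a floxed allele is not given in the sources used here. Each library came from 1 numbered animal, with 3 labelled females and 3 labelled males at 4 weeks, 1 labelled female (animal 35) and 4 labelled males at 8 weeks, and 2 labelled males at 6 weeks.

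Between weaning and young adulthood the fibres of a mouse muscle enlarge with little addition of new fibres. In this period the body-wide network of imprinted growth genes, led by Igf2, is switched down, the last developmental isoforms of contractile proteins are lost, and laying down of collagen slows. Myogenin and related factors, which drive fusion of muscle precursors and remain high in muscle that is poorly innervated, are low in adult innervated fibres.

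Totals ran from 10795778 to 23134727 counts per library at 4 weeks, from 15930582 to 21437318 at 6 weeks and from 5192700 to 20122887 at 8 weeks. Levels are given as CPM, counts scaled to a common library size, and differences as log2 fold changes of 8 over 4 weeks with their standard error (SE). Acta1 and other defining muscle genes were abundant in all 13 libraries, with Acta1 at 22432 CPM or more. Several libraries stood apart. Genes for nuclear rRNA held 11.6% and 8.49% of counts in animals 3 and 4 and 20.3% and 23.1% in animals 34 and 35, against at most 0.401% in the other 9. Animals 34 and 35 were the only 8-week libraries of sequencing pool A. The slow-fibre myosin Myh7 stood at 7455 CPM in animal 36, against 104 to 532 in the other 4 libraries of 8 weeks. Animal 4, labelled female, held Ddx3y, a Y-linked gene, at 66 counts (6.43 CPM) beside 36.2 CPM of Xist, while the other labelled females held at most 1 count of Ddx3y; whether this library holds RNA of more than 1 animal was not tested. The comparison was therefore repeated without animal 36 and without the 4 rRNA-rich animals, which include animal 4. In bulk tissue, fewer cells of a type and less RNA per cell cannot be told apart.

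Of 14228 genes tested, 797 rose from 4 to 8 weeks (5.60%) and 855 fell (6.01%) in edgeR's quasi-likelihood test with sequencing pool as a covariate, at a Benjamini-Hochberg adjusted p under 0.05. The 1652 called genes made up 11.6% of those tested. The counts given for gene lists in later paragraphs are to be set against these shares. Every 8-week library lay above every 4-week library for 472 genes (3.32%) and below it for 615 (4.32%). Changes past 2-fold were found for 222 of the genes that rose and 259 of those that fell. Without animal 36 the test called 2311 of 14053 genes (16.4%), 1483 of which were among the 1652. Without the rRNA-rich animals it called 539 of 14579 genes (3.70%), of which 504 were among the 1652, and 1651 of the 1652 kept their sign. The median log2 fold change over all tested genes was -0.01. Scaling by library size alone, without the composition factors, moved that median to -0.22 and gave 205 genes that rose and 671 that fell, with the spread between animals then shared by all genes. The p-values measure the spread between these animals.

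The animals of 6 weeks showed how far each change had gone. On the log2 scale, genes that rose had covered a median of 65.4% of their change by 6 weeks, and 319 of the 797 had covered at least 75% of it. Genes that fell had covered a median of 52.2%, and 213 of the 855 had covered at least 75%. These shares are descriptions from 2 libraries, both labelled male, and the genes were chosen by their change between 4 and 8 weeks.

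The largest falls included several imprinted and developmental genes. Kcne1l (also called Kcne5; chromosome X, positions 142304752 to 142306294, minus strand, GRCm38), an accessory subunit of voltage-gated potassium channels, lay between 40.8 and 79.3 CPM (median 47.6) in the 6 libraries of 4 weeks. At 8 weeks it stood at 2.81, 0.746, 1.79, 1.21 and 0.896 CPM in animals 34 to 38, so that the groups lay far apart (log2 fold change -5.46 ± 0.29 (SE), adjusted p = 3.66e-07), and the 6-week libraries were already at 3.78 and 3.07 CPM. Dlk1, an imprinted membrane protein of the Notch ligand family that marks immature cells, lay between 3.70 and 13.6 CPM (median 6.93) in the 6 libraries of 4 weeks and at 1.06, 0.746, 0.163, 0.626 and 0.738 CPM at 8 weeks (log2 fold change -3.97 ± 0.43 (SE), adjusted p = 1.04e-04). These 8-week levels rest on 3 to 14 counts per library. Igf2, the fetal insulin-like growth factor, lay between 69.4 and 206 CPM (median 99.0) in the 6 libraries of 4 weeks and at 15.1, 24.1, 10.5, 9.52 and 5.85 CPM at 8 weeks (log2 fold change -3.32 ± 0.44 (SE), adjusted p = 0.00131), again with no overlap. Ddc, the decarboxylase that makes dopamine and serotonin, fell with a log2 fold change of -3.69, adjusted p = 2.38e-05, and Nrk, an X-linked kinase known from the placenta, with -3.01, adjusted p = 1.78e-07. The others of the 12 largest falls were AW551984 (-4.79), the cardiac actin Actc1 (-2.90), the carboxypeptidase Cpz (-2.82), Tceal7 (-2.77), the F-box protein Fbxl22 (-2.72), the cartilage collagen Col2a1 (-2.62) and the imprinted zinc finger gene Zim1 (-2.53). All 12 kept the call in both repeats, which the rule for naming them required.

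**Figure D1:**
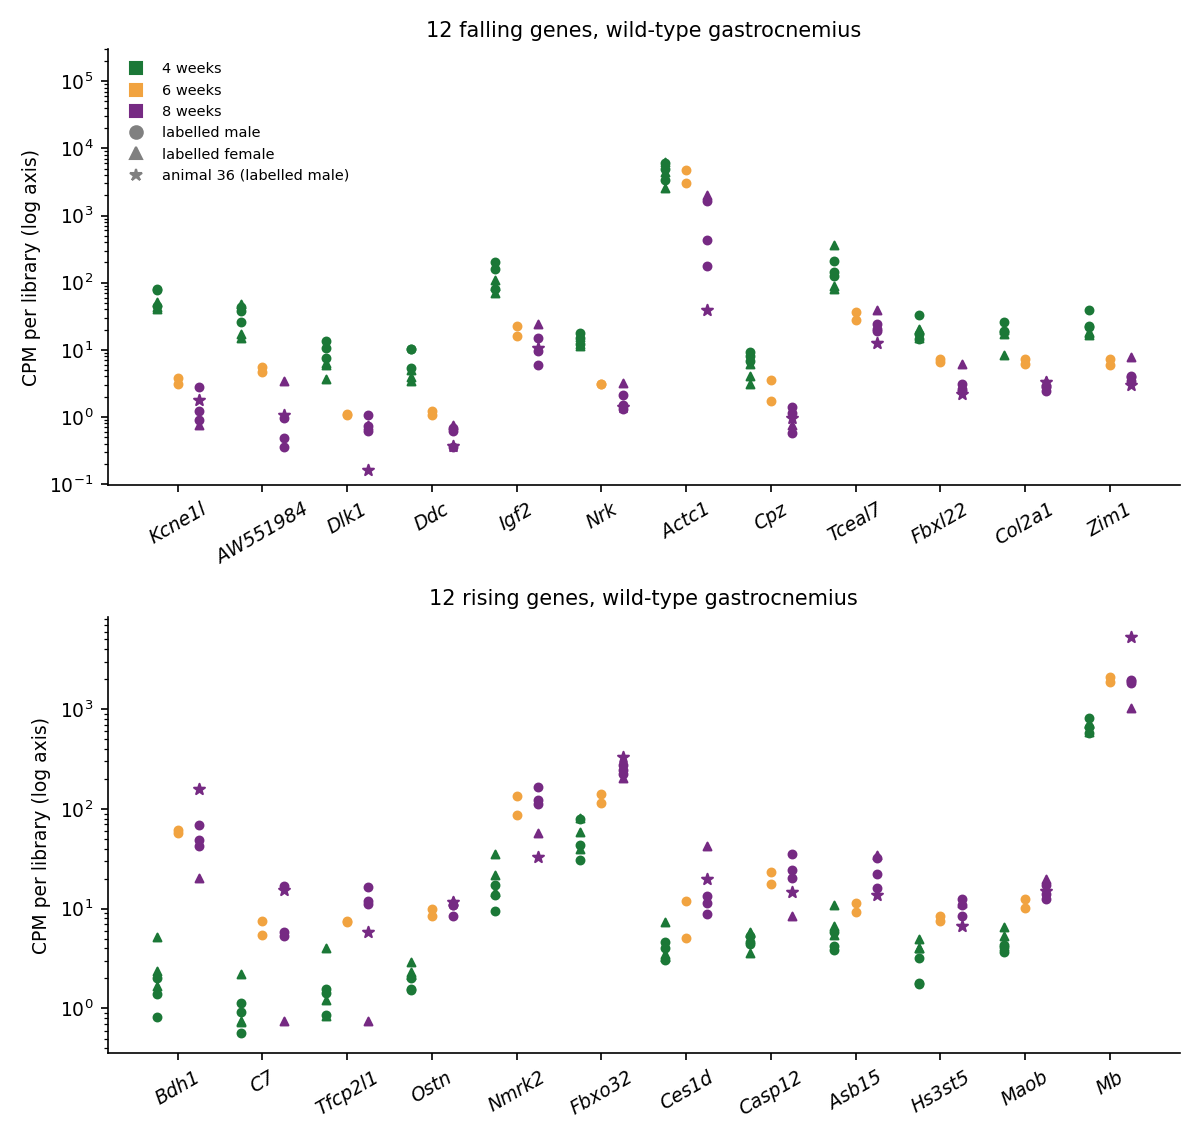
CPM in each library (log axis) for the 12 genes with the largest falls (top) and the 12 with the largest rises (bottom) that met the naming rule; colour gives age, circles labelled males, triangles labelled females and the star animal 36. For all 12 falling genes the 8-week points lie below the 4-week points, while among the rising genes C7, Tfcp2l1 and Nmrk2 overlap between the ages, C7 and Tfcp2l1 through animal 35 and Nmrk2 through animal 36.

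Imprinted growth genes, which are expressed from 1 parental copy and mostly act on fetal and early postnatal growth, fell as a group: 16 of the 23 (of 25 listed) tested fell and none rose, with a median log2 fold change of -1.71 against -0.01 for all genes. For 15 of the tested genes every 8-week library lay below every 4-week library. Over all genes tested, 6.01% fell and 4.32% had every 8-week library below every 4-week library. The paternally expressed transcription factors Peg3 and Plagl1 changed by -2.19, adjusted p = 6.25e-05 and -2.23, adjusted p = 1.06e-04. Peg3 lay between 66.3 and 143 CPM (median 101) in the 6 libraries of 4 weeks and at 19.7, 30.6, 24.5, 17.4 and 18.3 CPM at 8 weeks. Grb10, an adaptor that restrains insulin and IGF receptor signalling, lay between 167 and 239.9 CPM (median 216) in the 6 libraries of 4 weeks and at 56.3, 101, 98.9, 64.9 and 59.3 CPM at 8 weeks (log2 fold change -1.46 ± 0.16 (SE), adjusted p = 7.28e-05). Cdkn1c, an inhibitor of cyclin-dependent kinases, fell by 1.84 on the log2 scale (adjusted p = 0.00449), Ndn by 1.43 (adjusted p = 9.92e-05) and Peg10 by 1.78 (adjusted p = 1.08e-04). Igf2r, the receptor that clears IGF2, did not pass (-0.18, adjusted p = 0.304), and stood at 165 ± 9.83 CPM at 4 weeks (SD, n = 6) and 147 ± 24.6 at 8 weeks (n = 5). The members that fell had covered a median of 75.04% of their change by 6 weeks. At 2 weeks, on a scale set over the 19 wild-type libraries, Igf2 stood at 725 ± 99.4 CPM (SD, n = 6), against 134 ± 59.4 at 4 weeks and 14.8 ± 7.94 at 8 weeks.

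Among long non-coding transcripts of the imprinted domains, H19, Rian and Mirg fell. H19, the maternally expressed neighbour of Igf2, lay between 1715 and 5183 CPM (median 3139) in the 6 libraries of 4 weeks and at 747, 1447, 1308, 991 and 612 CPM at 8 weeks (log2 fold change -1.71 ± 0.28 (SE), adjusted p = 0.00163), and had covered 31.8% of its change by 6 weeks. Rian and Mirg, non-coding transcripts of the Dlk1 domain, changed by -2.12, adjusted p = 0.00970 and -2.001, adjusted p = 4.35e-04, while Meg3 of the same domain did not pass (-0.99, adjusted p = 0.0518). Meg3 stood at 17.9 CPM in animal 35, inside the 4-week range of 10.97 to 18.9, and at most 7.74 CPM in the other 4 animals of 8 weeks. These transcripts hold microRNAs: 2 mature sequences lie in H19 on chromosome 7, 6 in Rian and 26 in Mirg on chromosome 12, on the strand of the host. Mature microRNAs were not measured here. The sequences below, from RefSeq (GRCm38.p6), are shown because their hosts fell, with the seed (bases 2 to 8) in capitals. The first pair lies in H19, the next in Rian and the others in Mirg, and miR-453 and miR-496a-5p share a seed.

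miR-675-5p: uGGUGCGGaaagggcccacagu
miR-675-3p: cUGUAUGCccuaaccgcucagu
miR-370-3p: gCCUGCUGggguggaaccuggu
miR-453: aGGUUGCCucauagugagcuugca
miR-496a-5p: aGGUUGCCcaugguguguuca
miR-154-3p: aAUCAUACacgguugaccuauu
miR-410-3p: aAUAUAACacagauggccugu
miR-369-3p: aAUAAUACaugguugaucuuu

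Genes of the IGF and growth hormone axis moved both ways. Of 26 genes tested, 7 fell, Igf2 and Grb10 among them, and 3 rose, with a median log2 fold change of -0.24; 4 rose and 10 fell without animal 36, and 2 rose and 5 fell without the rRNA-rich animals. Igfbp3, the main carrier of circulating IGFs, lay between 40.99996 and 69.1 CPM (median 45.2) in the 6 libraries of 4 weeks and at 16.9, 14.2, 15.9, 17.3 and 15.9 CPM at 8 weeks (log2 fold change -1.62 ± 0.13 (SE), adjusted p = 2.93e-06). Its 6-week libraries, at 16.3 and 17.3 CPM, were already near the 8-week values. Igf1, the growth factor made by muscle itself, lay between 66.1 and 96.6 CPM (median 86.8) in the 6 libraries of 4 weeks and at 76.0, 44.5, 39.2, 55.0 and 52.9 CPM at 8 weeks (log2 fold change -0.68 ± 0.15 (SE), adjusted p = 0.00792); animal 34 overlapped the younger group and the 6-week libraries were still at 76.3 and 95.7 CPM. The insulin receptor substrates moved apart. Irs1 fell (-0.50, adjusted p = 0.00459) and Irs2 rose (0.68, adjusted p = 0.00183). Without the rRNA-rich animals Irs1 no longer passed (-0.44, adjusted p = 0.178). Grb14, a receptor adaptor related to Grb10, rose by 1.597 on the log2 scale (adjusted p = 0.0150), with animal 35 at 9.70 CPM inside the 4-week range of 6.404 to 11.5. The receptors Igf1r (-0.31, adjusted p = 0.136) and Ghr (0.25, adjusted p = 0.158) did not pass.

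Genes of immature muscle fell at different times. Of 14 (of 18 listed) genes tested, 7 fell and none rose (median -0.47); 0 rose and 10 fell without animal 36, and 0 rose and 5 fell without the rRNA-rich animals. Myog, the transcription factor myogenin, lay between 10.7 and 20.4 CPM (median 16.7) in the 6 libraries of 4 weeks and at 4.22, 3.98, 4.81, 3.31 and 2.63 CPM at 8 weeks (log2 fold change -2.09 ± 0.20 (SE), adjusted p = 1.60e-05), with no overlap. The 6-week libraries held 10.9 and 13.7 CPM, so that 17.9% of the change had been covered, and at 2 weeks the level was 47.9 ± 6.71 CPM on the 19-library scale. Actc1, the actin of heart and embryonic muscle, lay between 2600.04 and 6239 CPM (median 4692) in the 6 libraries of 4 weeks and at 1620.1, 2005, 38.97, 437 and 177 CPM at 8 weeks (log2 fold change -2.90 ± 0.74 (SE), adjusted p = 0.0327). Animals 34 and 35 held several times the level of the other 3, and the call was lost in 5 of the fits that left out 1 library, those without animal 5, 6, 34, 37 or 38 (adjusted p up to 0.0794). The 6-week libraries, at 4792 and 3092 CPM, were still within the 4-week range. Mymk, the membrane protein that fuses myoblasts, fell (-2.69, adjusted p = 0.00116) at levels of at most 2.15 CPM, and the myogenic factor Myod1 fell by 0.74 on the log2 scale (adjusted p = 0.00707). The neonatal myosin heavy chain Myh8 lay between 9.63 and 30.6 CPM (median 16.03) in the 6 libraries of 4 weeks and at 3.52, 6.22, 8.60, 4.16 and 3.43 CPM at 8 weeks (log2 fold change -1.88 ± 0.30 (SE), adjusted p = 0.00211). The embryonic chain Myh3 did not pass (-0.14, adjusted p = 0.901); animal 36 held 32.1 CPM and the other 4 animals of 8 weeks 3.48 to 7.46, below the 4-week range of 9.82 to 13.8, and without animal 36 it fell (-1.19, adjusted p = 3.10e-04). Ryr3 fell by 0.69 (adjusted p = 0.0443), a call lost without animal 1, 2, 5, 6, 34, 37 or 38 and without the rRNA-rich animals together (adjusted p up to 0.139). Pax7, the defining factor of satellite cells, did not pass (-0.07, adjusted p = 0.867).

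The window of 250 bases before and 50 after the annotated start of Myog (RefSeq, GRCm38.p6, chr1:134289754-134290053, plus strand) is shown because E-boxes, read as CANNTG on either strand, are the motif of the myogenic factors. The capitals mark its 2 matches, which begin 138 and 12 bases before the start. Of 32851 mouse promoter windows of this length, 72.3% hold at least 1 such match.

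Myog: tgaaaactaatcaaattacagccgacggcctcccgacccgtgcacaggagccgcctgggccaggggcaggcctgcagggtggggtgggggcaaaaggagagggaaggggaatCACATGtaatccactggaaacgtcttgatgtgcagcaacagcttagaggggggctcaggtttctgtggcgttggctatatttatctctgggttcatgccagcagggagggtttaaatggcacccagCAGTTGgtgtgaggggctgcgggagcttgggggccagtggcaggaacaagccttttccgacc

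Most neuromuscular junction genes were not called, but falls were more frequent among them than the 6.01% over all genes. Of 20 (of 22 listed) genes tested, 6 fell and 1 rose (median -0.37), and the falls include Myog, which is also on that list; 1 rose and 9 fell without animal 36, and 1 rose and 3 fell without the rRNA-rich animals. Chrnb1 and Chrne, the beta and adult epsilon subunits of the acetylcholine receptor, changed by -1.09, adjusted p = 4.35e-04 and -0.92, adjusted p = 0.00126. Chrne did not pass without the rRNA-rich animals (-0.84, adjusted p = 0.0592). Chrnb1 lay between 30.4 and 41.7 CPM (median 37.7) in the 6 libraries of 4 weeks and at 18.998, 17.7, 11.05, 18.9 and 20.7 CPM at 8 weeks, with no overlap. Chrna1, the alpha subunit, did not pass (-0.54, adjusted p = 0.0824). Musk, the receptor kinase that clusters acetylcholine receptors, was the member that rose (0.80, adjusted p = 0.00552). It stood at 25.7, 15.9, 35.3, 30.7 and 34.04 CPM at 8 weeks, where animal 35 lay inside the 4-week range of 13.9 to 19.1. In the dystrophin complex, which ties the fibre to its matrix, 6 of 18 genes tested fell and none rose (median -0.19); 0 rose and 6 fell without animal 36, and 0 rose and 2 fell without the rRNA-rich animals. The syntrophin Sntb1 (-1.45, adjusted p = 6.12e-05) and caveolin-3, Cav3 (-0.74, adjusted p = 8.58e-04), fell with no overlap between the groups. Dmd, dystrophin itself, changed by -0.53, adjusted p = 0.0197, a call lost without animal 34 or 37 and without the rRNA-rich animals together (adjusted p up to 0.0687).

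Many extracellular matrix genes fell. Of 41 genes tested, 28 fell and none rose (median -0.71). Without animal 36, 34 fell, without the rRNA-rich animals 19, and without all 5 of these animals 29. Col1a1, a chain of the main fibrillar collagen, lay between 1896 and 4598 CPM (median 3293) in the 6 libraries of 4 weeks and at 1306, 1089.7, 1029, 659 and 1044 CPM at 8 weeks (log2 fold change -1.68 ± 0.22 (SE), adjusted p = 1.72e-04). Col3a1, its fine-fibre partner, lay between 1679.8 and 3275 CPM (median 2365) in the 6 libraries of 4 weeks and at 863, 707, 896, 813 and 1009.9 CPM at 8 weeks (log2 fold change -1.52 ± 0.19 (SE), adjusted p = 1.13e-04). Both were higher in every 4-week library than in any 8-week library. Eln, the elastic fibre protein, changed by -2.08, adjusted p = 2.12e-05, Col6a3 by -1.12, adjusted p = 7.93e-05 and Nid1, a basement membrane linker, by -0.82, adjusted p = 1.29e-04. Fn1, fibronectin, did not pass (-0.23, adjusted p = 0.460). The matrix members that fell had covered a median of 19.9% of their change by 6 weeks, and 16 of 28 had covered under 25%, where the imprinted genes had covered 75.04%. That difference in timing was not tested. Summed over the list, matrix transcripts ran from 11488 to 18957 CPM at 4 weeks and from 5917 to 7746 at 8 weeks. Of the fibroblast markers, 1 rose and 2 fell of 14 tested (2 rose and 3 fell without animal 36, and 0 rose and 2 fell without the rRNA-rich animals), and their summed level ran from 1568 to 2024 CPM at 4 weeks and from 1869 to 2484 at 8 weeks, with 3 genes, Lum, Dcn and Col15a1, on both lists. Of 4 cartilage and bone markers tested, 2 fell and Sox9 (0.62) and Spp1 (1.02) did not pass; Col2a1 lay between 8.24 and 26.1 CPM (median 18.7) in the 6 libraries of 4 weeks and at 2.81, 3.48, 3.30, 2.46 and 2.90 CPM at 8 weeks, and Acan changed by -2.77. The summed cartilage and bone markers ran from 14.8 to 33.6 CPM at 4 weeks and from 5.68 to 16.8 at 8 weeks, with 4 of 9 at 0 in all 13 libraries. The part of non-muscle tissue in the matrix result was not tested.

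**Figure D2:**
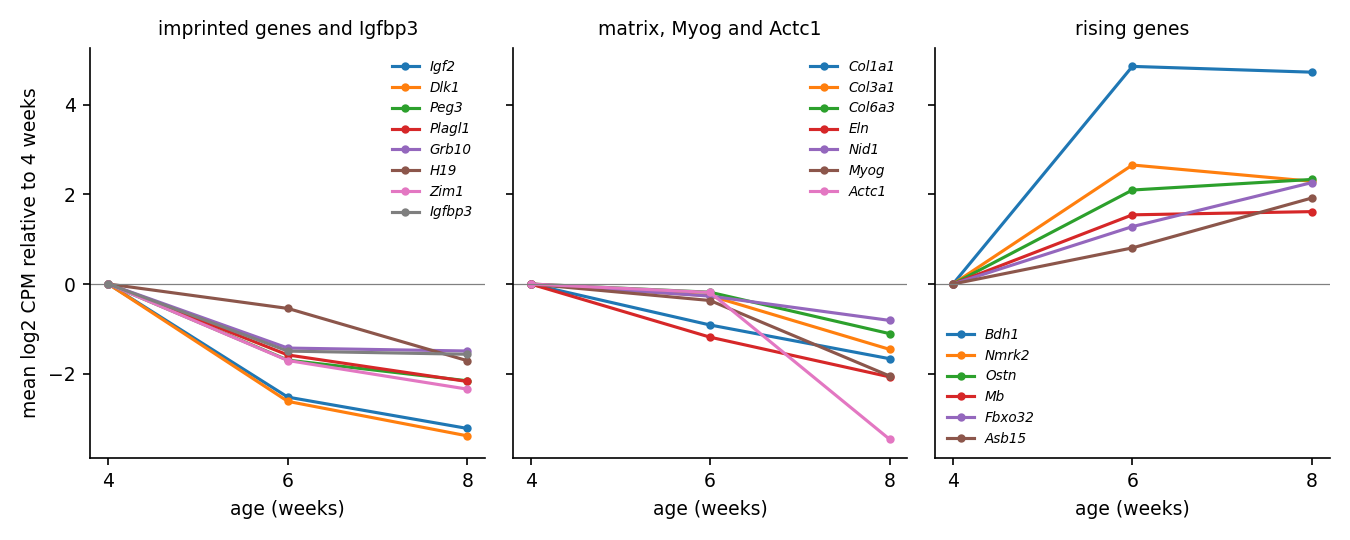
Mean log2 CPM relative to the 4-week mean at 4, 6 and 8 weeks (n = 6, 2 and 5 libraries) for imprinted genes and Igfbp3 (left), matrix genes, Myog and Actc1 (middle) and rising genes (right); lines join group means and show no error. The imprinted genes other than H19 drop mainly before 6 weeks, Actc1, Myog, Col3a1, Col6a3 and Nid1 mainly after it, and Bdh1, Nmrk2, Ostn and Mb are near their 8-week level by 6 weeks.

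The largest rises included a ketone body enzyme, a secreted peptide and a ubiquitin ligase. Bdh1 (chromosome 16, positions 31422280 to 31458901, plus strand), the mitochondrial enzyme that interconverts ketone bodies, lay between 0.820 and 5.26 CPM (median 1.86) in the 6 libraries of 4 weeks. At 8 weeks it stood at 69.7, 20.4, 158, 49.0 and 42.9 CPM in animals 34 to 38 (log2 fold change 4.92 ± 0.61 (SE), adjusted p = 0.00110), every one above every younger library, with animal 35 lowest and animal 36 highest. It had reached 61.4 and 57.5 CPM by 6 weeks. Ostn, a secreted peptide (osteocrin or musclin) made by muscle and bone, lay between 1.54 and 2.92 CPM (median 2.09) in the 6 libraries of 4 weeks and at 10.9, 11.9, 11.7, 8.54 and 11.01 CPM at 8 weeks (log2 fold change 2.44 ± 0.17 (SE), adjusted p = 4.80e-07). Relative to their mean, these 5 values lay closer together than those of any other of the 12 rises. Mb, the oxygen-binding protein myoglobin, lay between 582 and 808 CPM (median 684) in the 6 libraries of 4 weeks and at 1905, 1029, 5273, 1847 and 1967 CPM at 8 weeks (log2 fold change 1.71 ± 0.30 (SE), adjusted p = 0.00277), highest in animal 36; without that animal it still rose (1.31, adjusted p = 1.73e-05). Ces1d, a lipid-cleaving esterase (2.15, adjusted p = 0.0108), Casp12 (2.01, adjusted p = 7.53e-04), the ubiquitin ligase component Asb15 (1.94, adjusted p = 0.00168), the heparan sulfate enzyme Hs3st5 (1.76, adjusted p = 4.42e-04) and the monoamine oxidase Maob (1.73, adjusted p = 1.22e-05) rose with no overlap between the groups. C7, a complement component (2.98, adjusted p = 0.00469), and the transcription factor Tfcp2l1 (2.46, adjusted p = 0.0156) rose too, but animal 35 held 0.746 CPM of each, within the 4-week range for C7 and below it for Tfcp2l1. In animal 35 a single count stands for 0.249 CPM, so both of these levels rest on few counts. The call of Tfcp2l1 was lost without animal 6 (adjusted p = 0.0505).

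Among genes of NAD synthesis and use, 2 of 26 (of 27 listed) genes tested rose and none fell (median 0.10), no larger a share than the 11.6% called over all genes. Without animal 36, 2 rose and 2 fell, and without the rRNA-rich animals 2 rose and 0 fell. Nampt, which makes NMN from nicotinamide and is the gene deleted elsewhere in the study, lay between 84.3 and 123 CPM (median 97.7) in the 6 libraries of 4 weeks and at 178, 137, 146, 169 and 189 CPM at 8 weeks (log2 fold change 0.68 ± 0.12 (SE), adjusted p = 0.00211), with no overlap. The 6-week libraries held 175 and 161 CPM. Nmrk2, the muscle kinase that makes NMN from nicotinamide riboside, lay between 9.56 and 34.98 CPM (median 16.01) in the 6 libraries of 4 weeks and at 168, 57.5, 32.7, 111 and 124 CPM at 8 weeks (log2 fold change 2.41 ± 0.47 (SE), adjusted p = 0.0102). Animals 35 and 36 were the lowest of the 5, and animal 36 fell inside the 4-week range, whose top was animal 4.

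Calls among genes linked to muscle protein breakdown went both ways. Of 21 genes tested, 4 rose and 3 fell (median 0.20, from -1.04 to 2.16). Without animal 36, 7 rose and 4 fell, and without the rRNA-rich animals 2 rose and 0 fell. Leaving out all 5 of these animals gave 4 that rose and 3 that fell. Fbxo32, the muscle ubiquitin ligase atrogin-1, lay between 31.1 and 81.8 CPM (median 50.8) in the 6 libraries of 4 weeks and at 225, 203, 328, 277 and 244 CPM at 8 weeks (log2 fold change 2.16 ± 0.21 (SE), adjusted p = 6.12e-05), with no overlap, and the 6-week libraries stood between at 114 and 142 CPM. Trim63, the other classical ligase of muscle atrophy (MuRF1), did not pass (0.26, adjusted p = 0.0772), although each 8-week library, at 142, 143, 146, 175 and 166 CPM, lay above the 4-week maximum of 136. The autophagy genes Gabarapl1 (0.98, adjusted p = 0.00234) and Ulk1 (0.70, adjusted p = 0.00935) rose, and Eif4ebp1, a brake on translation, fell (-0.55, adjusted p = 0.00638). Without the rRNA-rich animals Gabarapl1 (1.004, adjusted p = 0.108) and Eif4ebp1 (-0.60, adjusted p = 0.101) no longer passed.

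Genes of polyamine metabolism split the animals of 8 weeks. Polyamines are small cationic metabolites that support protein synthesis and growth, and androgens are known to raise their enzymes in muscle. Amd1, the decarboxylase that supplies aminopropyl groups, lay between 25.5 and 66.0 CPM (median 31.8) in the 6 libraries of 4 weeks, with animal 4 highest. At 8 weeks it stood at 443, 52.2, 48.9, 445 and 554 CPM in animals 34 to 38, and at 425 and 291 CPM in the males of 6 weeks (log2 fold change 3.06 ± 0.69 (SE), adjusted p = 0.0211). Smox, spermine oxidase, lay between 45.9 and 101 CPM (median 46.4) in the 6 libraries of 4 weeks, with animal 4 again highest, and at 595, 83.6, 40.8, 352 and 559 CPM at 8 weeks (log2 fold change 2.54 ± 0.69 (SE), adjusted p = 0.0436). For both genes animals 34, 37 and 38 were high, while animal 35, the labelled female, and animal 36, a labelled male, were within or near the 4-week range. Odc1, ornithine decarboxylase, the first enzyme of the pathway, was also high in those 3 animals, at 84.8, 36.1, 41.1, 102 and 133 CPM but did not pass (0.88, adjusted p = 0.139). Azin1, an inhibitor of the antizymes that destroy Odc1, fell (-0.64, adjusted p = 9.84e-04). Of 12 genes tested, 3 rose and 1 fell (median 0.21). Without animal 36, 4 rose and 1 fell, and without the rRNA-rich animals 0 rose and 1 fell. Leaving out all 5 of these animals gave 5 that rose and 1 that fell. The third that rose in the main fit was Amd2 (2.68, adjusted p = 0.0360). Of the 38-base words of Amd1 and Amd2, 81.0% and 88.9% occur in other annotated genes, each other among them, so the counts of both are uncertain. The calls of Amd1, Amd2 and Smox were lost with a term for labelled sex (adjusted p = 0.0745, 0.0725 and 0.121) and without the rRNA-rich animals (adjusted p = 0.0756, 0.104 and 0.136). These genes passed when animal 36 was left out together with the rRNA-rich animals. Leaving out 1 library ended the call of Amd1 in 3 fits (without animal 5, 6 or 34) and those of Amd2 and Smox in 10 fits each, with adjusted p up to 0.0806, 0.113 and 0.136. Without animal 36 the log2 fold changes were 3.33, adjusted p = 0.00545 for Amd1 and 2.83, adjusted p = 0.00995 for Smox. Animal 34, a labelled male, shares pool A and a high rRNA share with animal 35 and was among the high animals; labelled sex and other features particular to animal 35, the single labelled female of 8 weeks, cannot be told apart.

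**Figure D3:**
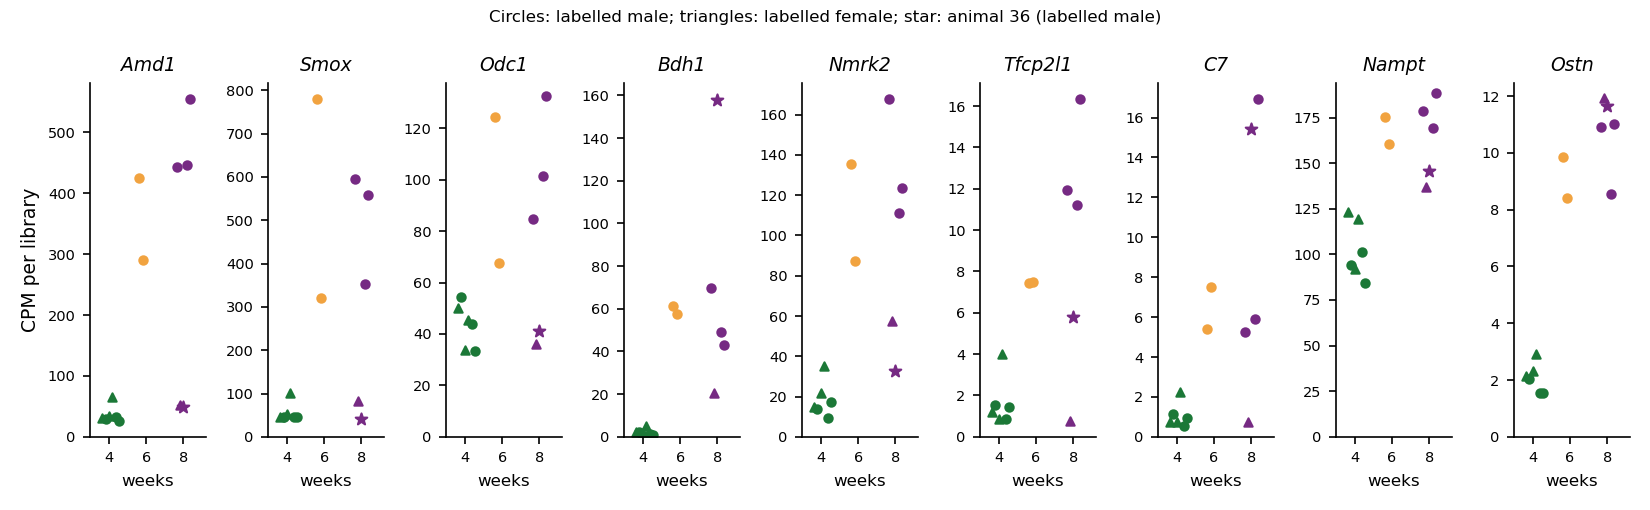
CPM in each library by age (weeks) for 9 genes, with circles for labelled males, triangles for labelled females and a star for animal 36. Amd1, Smox and Odc1 are high in animals 34, 37 and 38 and in the 6-week males and low in animals 35 and 36, while Ostn and Nampt are above every 4-week library in all 5 animals of 8 weeks.

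The promoter windows of Amd1 (chr10:40302139-40302438, minus strand) and Smox (chr2:131491612-131491911, plus strand), from RefSeq (GRCm38.p6), are shown because both genes were high in the same 3 animals of 8 weeks. Capitals mark CANNTG matches, 1 in each window, which begin 182 and 83 bases before the start. The bases that follow the start were found unbroken in GENCODE transcripts for Smox but not for Amd1, so the Amd1 start is less certain. Neither window holds TGTTCT on either strand, the core hexamer read by androgen and glucocorticoid receptors, which 18.97% of the 32851 windows hold; this says only that these letters are not in these windows.

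Amd1: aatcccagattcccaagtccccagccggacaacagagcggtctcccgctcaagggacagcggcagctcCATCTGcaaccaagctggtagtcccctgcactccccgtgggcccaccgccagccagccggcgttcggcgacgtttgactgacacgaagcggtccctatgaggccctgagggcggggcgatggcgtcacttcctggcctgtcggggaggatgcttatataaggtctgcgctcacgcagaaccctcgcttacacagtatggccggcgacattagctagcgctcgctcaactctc
Smox: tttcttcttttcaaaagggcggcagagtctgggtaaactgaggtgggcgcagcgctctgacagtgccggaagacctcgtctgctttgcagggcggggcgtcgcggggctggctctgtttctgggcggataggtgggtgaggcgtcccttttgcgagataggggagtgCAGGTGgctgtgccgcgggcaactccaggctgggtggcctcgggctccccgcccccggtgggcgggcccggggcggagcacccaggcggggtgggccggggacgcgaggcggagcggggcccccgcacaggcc

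Myh4 dominated the myosin make-up at both ages in all animals but 1. Myosin heavy chains define fibre types: Myh4 marks the fastest type IIb fibres, Myh1 and Myh2 the IIx and IIa fibres, and Myh7 slow fibres. Myh4 made up 89.0 ± 1.19% of myosin heavy chain counts at 4 weeks (SD, n = 6), from 87.6% to 90.9%. At 8 weeks it made up 85.7%, 90.4%, 20.6%, 88.1% and 87.7% in animals 34 to 38. The difference in the Myh4 share of myosin heavy chain counts, -14.5 percentage points, did not pass a two-sided exact permutation test (p = 0.0801, 462 relabelings, smallest possible p 0.00216). Without animal 36 it was -1.01 points (exact permutation p = 0.333), and without animal 35 it was -18.5 points and passed (exact permutation p = 0.0143). Within pool A the shares were 89.5% at 4 weeks and 88.0% at 8 weeks, and within pool B 88.5% and 65.5%. The Myh2 share rose from a mean of 3.31% to 10.04% (exact permutation p = 0.00866), with 31.3% in animal 36. Without animal 36 its 8-week mean was 4.72% (exact permutation p = 0.0190), and animal 35, at 3.45%, stayed within the 4-week range. The Myh7 share rose from 0.346% to 6.34% (exact permutation p = 0.0195). Without animal 36 the Myh7 share did not pass (0.668%, exact permutation p = 0.0714). The Myh1 share did not pass (exact permutation p = 0.738). Per exonic base, animal 36 held 24.2% Myh4, 20.7% Myh1, 30.98% Myh2 and 23.8% Myh7. In single-gene tests Myh1 (-0.22, adjusted p = 0.397), Myh2 (0.78, adjusted p = 0.115), Myh4 (-0.44, adjusted p = 0.494), Myh6 (0.79, adjusted p = 0.338), Myh7 (2.51, adjusted p = 0.171), Myh7b (1.83, adjusted p = 0.116) and Myh13 (0.08, adjusted p = 0.935) did not pass. The Myh genes share 38-base words, for example 37.4% of those of Myh1, so their split is uncertain.

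**Figure D4:**
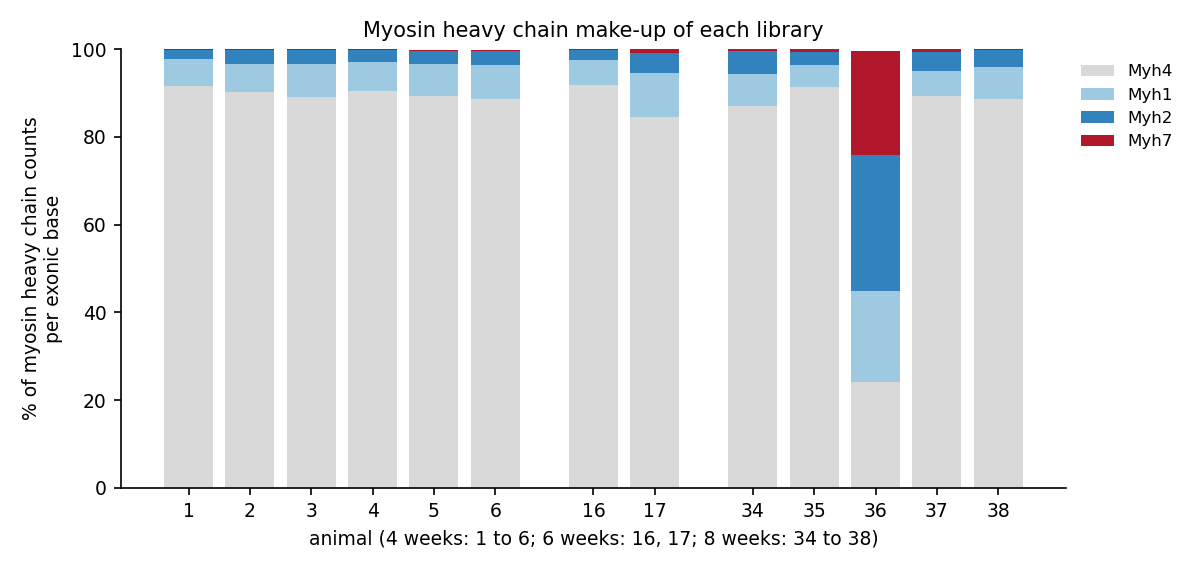
Share of myosin heavy chain counts per exonic base (%) taken by Myh4, Myh1, Myh2 and Myh7 in each wild-type library of 4, 6 and 8 weeks; the rest of each bar up to 100% is the other 5 chains. Animal 36 holds 24.2% Myh4 and 23.8% Myh7, and the other libraries hold mostly Myh4.

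Animal 36 stood far apart in the fibre-type lists, but their summed levels also differed between the ages in the other animals. The slow-fibre list, which includes Mb, ran from 1723 to 2415 CPM at 4 weeks. At 8 weeks it ran from 2948 to 4244 CPM without animal 36, which held 28290. The fast-fibre list ran from 164224 to 226148 CPM at 4 weeks. At 8 weeks it ran from 132884 to 154728 CPM without animal 36, which held 33680. These sums were not tested. Of 19 slow-fibre genes tested, 1 rose, Mb, with a list median of 1.71; without animal 36 the median was 0.24, with 4 that rose and 3 that fell. Myl2, the slow regulatory light chain, stood at 203, 184, 2037, 293 and 150.03 CPM at 8 weeks and Tnnt1, slow troponin T, at 112, 138, 1540.4, 143 and 39.2 CPM, and neither passed (2.07, adjusted p = 0.101 and 1.84, adjusted p = 0.242). Sln, sarcolipin, an inhibitor of the calcium pump, did not pass (0.86, adjusted p = 0.642), with 32.8 CPM in animal 36; without that animal it fell (-2.34, adjusted p = 0.00229). Of 18 fast-fibre genes tested, 2 fell and none rose (median -0.57, or -0.35 with 7 that fell and 1 that rose without animal 36). Mylpf, the fast regulatory light chain, lay between 10825 and 13943 CPM (median 12136) in the 6 libraries of 4 weeks and at 6243, 7166, 1731, 6453 and 5878 CPM at 8 weeks (log2 fold change -1.16 ± 0.27 (SE), adjusted p = 0.0107); without the rRNA-rich animals it no longer passed (-1.48, adjusted p = 0.0967). Casq1, the calcium store protein of fast fibres (-0.84, adjusted p = 0.0468), lost its call in 11 of the 13 fits that left out 1 library, all but those without animal 36 or 37, and without the rRNA-rich animals together (adjusted p up to 0.0989). Pvalb, the calcium buffer of fast fibres, did not pass (-0.77, adjusted p = 0.269) although every 8-week library, at 5937, 6617, 679.99, 6806 and 6934 CPM, lay below the 4-week minimum of 7323.

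Sarcomere genes moved both ways: of 32 genes tested, 3 rose and 4 fell (median 0.04); 5 rose and 8 fell without animal 36, and 1 rose and 1 fell without the rRNA-rich animals. Tcap, the telethonin that anchors titin, lay between 505 and 1118 CPM (median 753) in the 6 libraries of 4 weeks and at 1243, 1510.4, 1739, 1906 and 2012 CPM at 8 weeks (log2 fold change 1.07 ± 0.15 (SE), adjusted p = 3.81e-04), with no overlap. Acta1, skeletal actin, changed by -0.66, adjusted p = 0.0213; the call was lost without animal 5, 34 or 35 and without the rRNA-rich animals together (adjusted p up to 0.0644). In calcium handling, 4 of 25 genes tested fell and 1 rose (median -0.17); 4 rose and 9 fell without animal 36, and 1 rose and 1 fell without the rRNA-rich animals. Asph (-0.80, adjusted p = 0.00104) and the calcium channel subunit Cacnb1 (-0.79, adjusted p = 0.00163) fell with no overlap. Asph no longer passed without the rRNA-rich animals (-0.81, adjusted p = 0.0635).

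Messenger RNAs of the mitochondrial genome rose as a share of all counts. The 13 mitochondrial mRNAs, of which mt-Nd4l, mt-Atp6 and mt-Atp8 were at 0 in all 13 libraries, took 1.94 ± 0.577% of all counts at 4 weeks (SD, n = 6), from 1.57% to 3.07%, and 3.25%, 2.44%, 4.35%, 4.70% and 3.59% at 8 weeks. The rise of the mitochondrial mRNA share of counts by 1.72 percentage points passed the two-sided exact permutation test (p = 0.00649, 462 relabelings), although animal 1 at 4 weeks overlapped animal 35. The mitochondrial rRNA genes varied between libraries. They held 3.77% to 23.5% of counts at 4 weeks, highest in animal 3 with the next at 8.81%, and 12.9%, 22.3%, 8.47%, 13.4% and 6.38% at 8 weeks. Within pool A the mean mRNA shares were 2.11% and 2.85%, and within pool B 1.78% and 4.22%. With nuclear and mitochondrial rRNA counts taken out of the total, the mRNA share ran from 1.68% to 3.24% at 4 weeks and from 3.86% to 5.44% at 8 weeks. That rise of 2.46 points passed (exact permutation p = 0.00216). Beyond their place in the total, the part of the mitochondrial rRNA genes in the mRNA share was not tested. Without the rRNA-rich animals the share of all counts rose by 2.20 points and missed the threshold (exact permutation p = 0.0571). Of the 8 tested singly, 4 rose (median 1.34), among them mt-Co1 (0.96, adjusted p = 0.00744) and mt-Nd1 (1.40, adjusted p = 0.00537), and none passed without the rRNA-rich animals. Other annotated genes share 58.4% of the 38-base words of mt-Co1. None of the 36 complex I genes tested was called (edgeR, median -0.09), 1 of 36 genes of complexes III to V fell (Atp5o, -0.35, adjusted p = 0.0297, lost in 7 fits without 1 library and without the rRNA-rich animals together, adjusted p up to 0.0880; median -0.11) and none of 22 genes of the citric acid cycle was called (edgeR, median -0.02). At an unadjusted p under 0.05 there were 3 complex I genes and 4 of the cycle, and DESeq2 called 1 and 3.

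Fuel handling changed in single steps. Of 30 fatty acid oxidation genes tested, 3 rose and none fell (median 0.24), no larger a share than the 11.6% called over all genes. Without animal 36, 3 rose and 0 fell, and without the rRNA-rich animals 0 rose and 0 fell. Leaving out all 5 of these animals gave 2 that rose and 0 that fell. Lpl, the lipase that frees fatty acids from lipoproteins, lay between 159.7 and 253 CPM (median 198) in the 6 libraries of 4 weeks and at 455, 336, 1266, 376 and 327 CPM at 8 weeks (log2 fold change 1.36 ± 0.31 (SE), adjusted p = 0.0157), highest in animal 36. Ucp3, a mitochondrial carrier of muscle, rose (1.23, adjusted p = 0.0172). Neither passed without the rRNA-rich animals (1.48, adjusted p = 0.192 for Lpl and 1.29, adjusted p = 0.0640 for Ucp3). Of 33 genes of glycolysis and glycogen, 5 rose and 1 fell (median -0.10); 9 rose and 4 fell without animal 36, and 2 rose and 0 fell without the rRNA-rich animals. The hexokinase Hk2 lay between 140.2 and 217 CPM (median 207) in the 6 libraries of 4 weeks and at 299, 301, 392, 303 and 336 CPM at 8 weeks (log2 fold change 0.72 ± 0.12 (SE), adjusted p = 0.00148), and the glycogen synthase Gys1 rose too (0.56, adjusted p = 0.00291), both with no overlap. Ldhb, the heart form of lactate dehydrogenase, rose by 1.55 (adjusted p = 0.0110) with 387 CPM in animal 36 against 96.9 to 146 in the other 4, and did not pass without the rRNA-rich animals (1.71, adjusted p = 0.141). Slc2a4, the insulin-regulated glucose carrier, changed by 0.46, adjusted p = 0.0245, a call lost without animal 5, 6, 34 or 38 and without the rRNA-rich animals together (adjusted p up to 0.0734). Among 28 regulators of metabolism and fibre type, 5 rose and none fell (median 0.14; 6 rose and 2 fell without animal 36, and 0 rose and 0 fell without the rRNA-rich animals), including the nuclear receptor Esrrb (1.92, adjusted p = 0.0154, 24.2 CPM in animal 36 against 4.58 to 8.44). Esrrb did not pass without the rRNA-rich animals (2.22, adjusted p = 0.139).

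Genes of antigen presentation and the interferon response rose in part. Of 29 interferon and MHC genes tested, 12 rose and none fell (median 0.47). Without animal 36, 10 rose, and without the rRNA-rich animals 6. In pool A alone 0 rose, in pool B alone 4 and with all 37 libraries 5. H2-Aa, a class II chain of antigen-presenting cells, lay between 2.23 and 8.97 CPM (median 4.95) in the 6 libraries of 4 weeks and at 11.96, 17.9, 16.8, 12.1 and 15.3 CPM at 8 weeks (log2 fold change 1.52 ± 0.29 (SE), adjusted p = 0.00512), and H2-Eb1 rose by 1.47, adjusted p = 0.00277, both with no overlap. The non-classical class I genes H2-Q6 (2.66, adjusted p = 3.79e-04) and H2-Q7 (2.28, adjusted p = 0.00783) rose from under 1 CPM, and 44.2% and 33.3% of their 38-base words occur in other genes. H2-Aa, H2-Eb1 and H2-Q7 lost their calls with all 37 libraries, and H2-Aa also with all 19 wild-type libraries. Ciita, the class II activator (1.13, adjusted p = 0.0577), and B2m (0.28, adjusted p = 0.331) did not pass. Of 18 macrophage markers tested, 3 rose, among them Gpnmb (1.34, adjusted p = 0.00154), and 2 fell, among them Mrc1 (-0.95, adjusted p = 7.98e-04). For these markers 3 rose and 2 fell without animal 36, and 1 rose and 1 fell without the rRNA-rich animals. With all 37 libraries 0 of them rose and 2 fell. Their summed level ran from 154 to 258 CPM at 4 weeks and from 135 to 191 at 8 weeks. Ighm, the heavy chain of IgM, lay between 10.3 and 16.1 CPM (median 12.6) in the 6 libraries of 4 weeks and at 72.5, 30.1, 13.21, 56.7 and 59.5 CPM at 8 weeks (log2 fold change 1.89 ± 0.37 (SE), adjusted p = 0.00989), with animal 36 inside the 4-week range, and did not pass without the rRNA-rich animals (2.07, adjusted p = 0.0933). The part of immune cell number in these changes was not tested. Erythroid genes fell: 6 of the 7 tested (median -1.77), with Hbb-bs between 74.3 and 127 CPM (median 116) in the 6 libraries of 4 weeks and at 24.98, 20.9, 69.0, 34.1 and 38.3 CPM at 8 weeks (log2 fold change -1.56 ± 0.21 (SE), adjusted p = 4.42e-04), and Alas2, the erythroid enzyme of heme synthesis, changed by -1.77, adjusted p = 8.74e-05. The part of blood left in the tissue in this fall was not tested.

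Proliferation genes were low and uneven. Of 38 cell cycle genes tested, 3 fell and 1 rose, with a median of -0.997; 2 rose and 6 fell without animal 36, and 0 rose and 1 fell without the rRNA-rich animals. Mki67, the proliferation antigen, lay between 2.24 and 27.8 CPM (median 3.81) in the 6 libraries of 4 weeks, with animals 1 and 2 at 27.8 and 21.4 CPM and the other 4 at most 4.10, and at 3.52, 1.74, 1.43, 2.37 and 0.474 CPM at 8 weeks, and did not pass (-1.96, adjusted p = 0.131). Kif20a (-1.17, adjusted p = 0.0213) and Mcm5 (-1.33, adjusted p = 0.0388) fell; the first call was lost without animal 34 or 35 and the second without animal 1, 5, 34, 35, 37 or 38, and both without the rRNA-rich animals together (adjusted p up to 0.0592 and 0.0945). Of 25 ribosome biogenesis genes tested, 1 fell, the growth regulator Myc (-1.32, adjusted p = 0.00125), and none rose (median -0.18). Of 27 genes of the myostatin and activin pathway, 1 rose, the BMP antagonist Nog (1.10, adjusted p = 0.0109), and 2 fell (median -0.02), a share near the 11.6% called over all genes. Without animal 36, 2 rose and 4 fell, and without the rRNA-rich animals 1 rose and 1 fell. In the thyroid hormone list 1 of 10 rose, the receptor Thrb (0.70, adjusted p = 0.00501), and none fell. Immediate early genes had 4 that fell, Jund first (-1.21, adjusted p = 2.57e-04), and 1 that rose of 25. Glucocorticoid and fasting genes had 4 that rose and 2 that fell of 26, heat shock genes 5 and 2 of 20, lipid and sterol synthesis genes 3 and 2 of 32, and genes of the integrated stress response 0 and 4 of 19. In the repeats, 1 rose and 6 fell without animal 36, and 0 rose and 2 fell without the rRNA-rich animals among immediate early genes, and for heat shock genes 4 rose and 4 fell without animal 36, and 0 rose and 1 fell without the rRNA-rich animals. For lipid and sterol synthesis 3 rose and 9 fell without animal 36, and 1 rose and 0 fell without the rRNA-rich animals, for the stress response 1 rose and 7 fell without animal 36, and 0 rose and 1 fell without the rRNA-rich animals, and for glucocorticoid and fasting genes 4 rose and 2 fell without animal 36, and 3 rose and 0 fell without the rRNA-rich animals.

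Beyond the macrophage, erythroid, fibroblast, cartilage and IgM markers given above, calls differed by cell type. None of 13 endothelial, 11 adipocyte, 10 tendon and 14 Schwann cell markers tested was called (edgeR), with medians of -0.03, 0.45, 0.03 and -0.49. At an unadjusted p under 0.05 there were 0, 1, 4 and 3 in that order, and DESeq2 called 0, 0, 1 and 0. Without animal 36, 10 of the 14 Schwann cell markers fell, and their summed level ran from 431 to 667 CPM at 4 weeks, from 223 to 423 in 4 of the animals of 8 weeks and stood at 593 in animal 36. Satellite cell markers had 2 that fell of 14 and none that rose, and 6 that fell without animal 36. Of 11 mural cell markers, Acta2, smooth muscle actin, fell (-1.68, adjusted p = 0.00367) and none rose, and 3 fell without animal 36. Adipoq, an adipocyte hormone, was 33.7 CPM in animal 36 against 1.34 to 10.22 in the other 4 animals of 8 weeks.

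Of all 1652 calls, 1483 held without animal 36. Among genes that met the naming rule apart from that repeat, 2 lost the call without it: the linker histone Hist1h1d (-0.99, adjusted p = 0.0275, without animal 36 -0.93, adjusted p = 0.0539) and Mcf2l (-0.64, adjusted p = 0.0436, without animal 36 -0.59, adjusted p = 0.0795). Both also lost it in several fits without 1 other library, with adjusted p up to 0.0704 and 0.113. Counts of genes whose exons overlap a gene on the other strand are uncertain because the strand setting of the counting is not given in the sources used here; of the named genes this touches Igf2 most, with 64.5% of exonic bases overlapped, then Jund (52.6%), Atp5o (47.9%), Mb (31.9%) and Irs1 (30.9%).

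**Figure D5:**
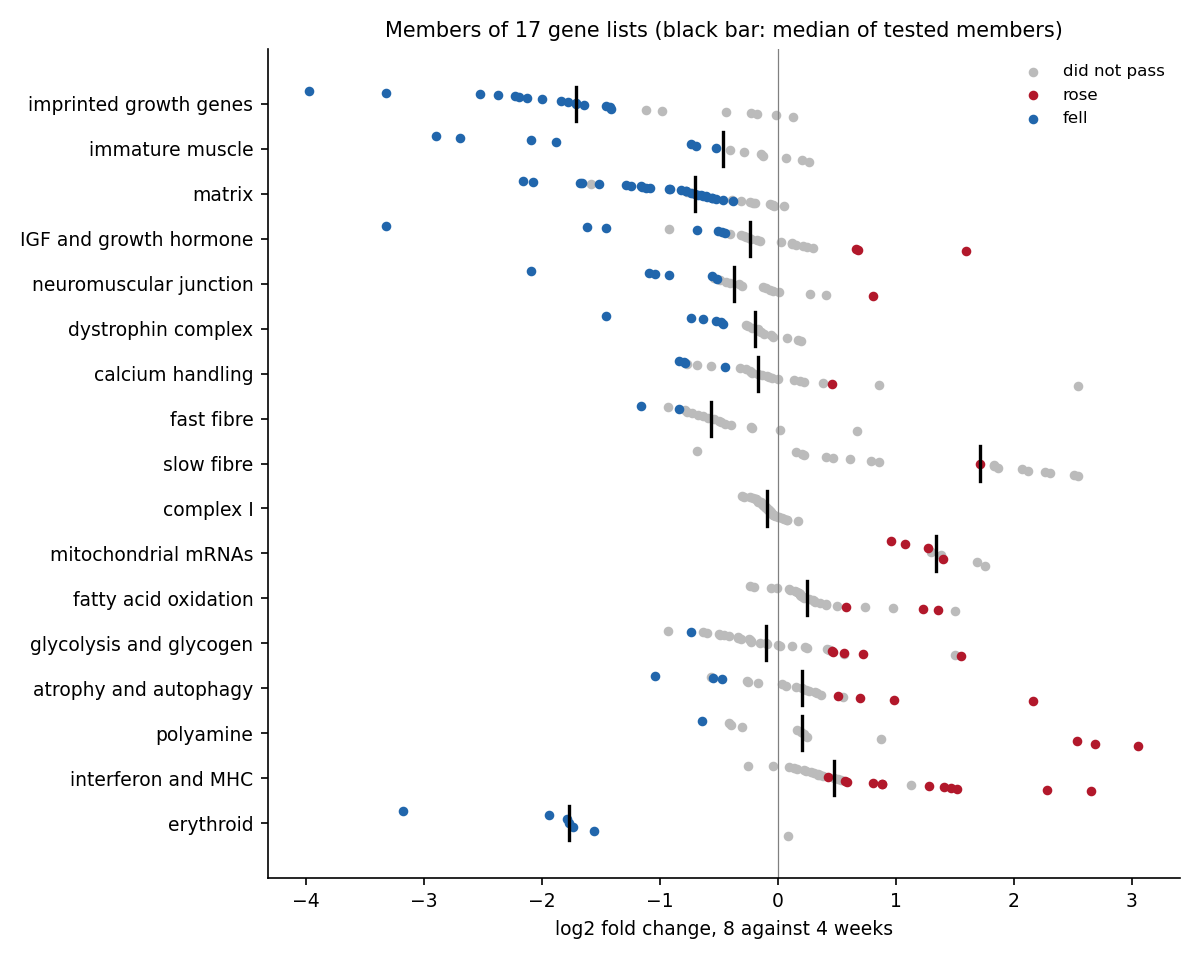
Log2 fold change from 4 to 8 weeks (x axis) of each tested member of 17 gene lists (rows), with colour for the call and a mark for the list median. Imprinted, matrix and erythroid genes lie mostly below 0 and interferon and MHC genes mostly above it, while complex I genes lie around 0.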

How the data were processed

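Ribosome-depleted, stranded total RNA from gastrocnemius was sequenced as 38-base read pairs, per the labels' protocols. The authors deposited raw counts per gene, and the submitters' processing notes list alignment software STAR (version 2.5.2b), the counter featureCounts (version 1.5.2), edgeR (version 3.22.0) and the mm10 build; the gene annotation and strand setting are not given in the sources used here. Gene positions come from GENCODE vM21 on GRCm38, matched by gene identifier.

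The counts were fitted with edgeR 4.0.16 (R 4.3.3, limma 3.58.1; TMM factors, quasi-likelihood F test, filterByExpr with a minimum count of 10 and total of 15) on 13 wild-type libraries with age and sequencing pool as terms; a Benjamini-Hochberg adjusted p under 0.05 was called. The filter left out 36458 genes, which held at most 0.163% of a library's counts. Shares were compared by two-sided exact permutation. DESeq2 1.42.0, other scalings, filters, terms and sample sets, and leaving out each library, were alternatives, and the fit was tested on simulated data.

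The rule named the 12 largest rises and 12 largest falls whose log2 CPM averaged 1 or more and which were called in both repeats and had the same sign in both pools, and the genes that lost the call without animal 36. From each of 44 gene lists the called genes with the smallest p were named; others were chosen after their values were seen, and a few genes are not reported here. The members and lists were chosen with earlier results of these data known. Uncertainty from shared sequence was counted over 38-base words of annotated transcripts. Knockout libraries entered only the fit with all 37.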

Additional observations from a re-analysis of the deposited data

Results flagged for a closer look

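Each group of 4 to 10 libraries was searched for a highest or lowest library whose gap to its nearest neighbour passed Dixon's 95% critical value. Over 246 groups, 46 values stood out, 22 of them in animal 36. Chance flags about 1 in 20 groups that are independent and not chosen by their values. Some of these genes were chosen after their values were seen, and groups of an age share the same libraries, so that rate does not apply here.

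Animal 36 was the high one at 8 weeks in Mb (5273 CPM), Lpl (1266 CPM), Ldhb (387 CPM), Esrrb (24.2 CPM), Gabarapl1 (56.5 CPM), Myh2 (8044 CPM), Myh3 (32.1 CPM), Myh6 (7.99 CPM), Myh7 (7455 CPM), Myh7b (17.4 CPM), Igf2r (190.1 CPM), Tnnt1 (1540.4 CPM), Myl2 (2037 CPM), Sln (32.8 CPM) and Adipoq (33.7 CPM). It was the low one in Mylpf (1731 CPM), Casq1 (829.1 CPM), Acta1 (22432 CPM), Cacnb1 (93.5 CPM), Myh4 (5291 CPM), Pvalb (679.99 CPM) and Myh4 share of myosin heavy chain counts (20.6%).

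Animal 4 (which also held Ddx3y counts against its label) was the high one at 4 weeks in Bdh1 (5.26 CPM), C7 (2.24 CPM), Tfcp2l1 (3.99 CPM), Amd1 (66.0 CPM) and Smox (101 CPM).

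Animal 35 was the high one at 8 weeks in AW551984 (3.48 CPM), Fbxl22 (6.22 CPM), Zim1 (7.71 CPM), Rian (49.997 CPM) and Meg3 (17.9 CPM). It was the low one in Azin1 (43.5 CPM).

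Animal 1 was the high one at 4 weeks in Casq1 (5915 CPM), mt-Co1 (21252 CPM), Myh1 (5138 CPM), Myh4 (73718 CPM) and mitochondrial mRNA share of counts (3.07%).

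Animal 6 was the high one at 4 weeks in Zim1 (38.7 CPM), Igfbp3 (69.1 CPM) and Gabarapl1 (25.4 CPM). It was the low one in Hk2 (140.2 CPM).

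The single flags were Fbxl22 in animal 5 (33.3 CPM at 4 weeks, high), Mcf2l in animal 38 (23.2 CPM at 8 weeks, high), Trim63 in animal 3 (108 CPM at 4 weeks, low) and Adipoq in animal 2 (13.5 CPM at 4 weeks, high).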

How the results depend on the processing

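The number of genes changed from 4 to 8 weeks in wild type, 1652 as reported, was 876 with library sizes alone, 1101 with a term for rRNA share, 279 in pool A and 265 in pool B alone, 1013 in labelled males, 539 without the rRNA-rich animals, 2918 with all 19 wild-type libraries and 2575 with all 37. Several of these fits also differ in their number of samples, and the cause was not tested. The fit without the rRNA-rich animals held 9 libraries, and the fit that also left out animal 36 held 8 and called 1368. Leaving out 1 library gave 958 (without animal 5) to 2311 (without animal 36), and 1092 without animal 6. It stayed within 1.5 times the reported number with DESeq2 (2025), without the pool term (1806) and with a term for labelled sex (1780), with median ratio (RLE) factors, without rRNA genes, at a minimum count of 50, with 4 and 8 weeks alone and without all 5 animals that stood apart. Without a filter on low counts it was 2353. In that fit and with library sizes alone the prior degrees of freedom were infinite, so that 1 spread served all genes and their p-values are not set by each gene's own spread. The mitochondrial mRNA share of counts rose by 1.47 to 2.03 points when 1 library was left out, and by 2.20 points, no longer past the threshold, without the rRNA-rich animals. The Myh4 share of myosin heavy chain counts changed by -18.5 points (without animal 35, then past the threshold) to -1.01 points (without animal 36). The Sln log2 fold change ran from -2.34 (without animal 36) to 1.22 when 1 library was left out and was -3.20 without the 5 animals. Of 96 named genes that were called, 81 kept the call in every fit without 1 library and 28 in every setting. The call was lost by 50 in pool A alone (6 libraries) and by 50 in pool B alone (7 libraries). It was lost by 24 without the rRNA-rich animals, 17 with library sizes alone, 18 in labelled males and 12 with the rRNA term. Without the rRNA-rich animals and animal 36 together, 8 lost it: Irs1, Kif20a, Mcm5, Acta1, mt-Nd1, mt-Co1, Gabarapl1 and Eif4ebp1. The rule fixed that 24 of the named genes pass both repeats, and over all 1652 called genes 504 kept the call without the rRNA-rich animals and 1483 without animal 36. No paired analysis was possible because the animal numbers are not shared between the ages. Totals from 5192700 counts limit the low genes, and pool A at 8 weeks holds only rRNA-rich libraries, so pool and rRNA share cannot be told apart there.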
